A study of Mus musculus with 2 samples.

Results

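Mir128-1 and Mir128-2 are the 2 mouse genes that encode the microRNA (miRNA) miR-128. Both members were taken by gene name from the GENCODE M21 annotation, as 2 of the 2202 miRNA genes counted. Mir128-1 (ENSMUSG00000065520.2) lies at chr1:128202361-128202430 on the plus strand and Mir128-2 (ENSMUSG00000065441.2) at chr9:112118636-112118711 on the minus strand, both in build mm10. The counts come from calf muscle, the gastrocnemius, taken from 2 B6CASTF1/J females aged 10 days, which are first-generation offspring of C57BL/6 and CAST parents. Libraries were made from RNA under 30 bases, selected from total RNA. The labels number the libraries as biological replicates 2 and 1 and name a separate female for each, beside a donor entry that they share, and the design holds 1 group and no contrast between conditions. Reads from the C57BL/6 and CAST copies of a gene were counted together.

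A miRNA is cut from the stem of a hairpin in its primary transcript, and either arm of the stem, 5p or 3p, can be loaded into an Argonaute protein. The seed, bases 2 to 8 of the mature RNA, leads the pairing to target messenger RNAs. miR-128 is known as a miRNA enriched in brain and skeletal muscle, with the 3p arm as its main product, and in mouse muscle cells it has been linked to insulin signalling through Irs1. Its genes sit in introns of protein-coding hosts. R3hdm1 encodes a protein with an R3H domain, a fold that binds nucleic acids, and Arpp21 encodes a cAMP-regulated phosphoprotein that is abundant in the striatum of the brain.

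The 2 hairpins are shown because their sequence decides which reads could be counted on which gene. The RefSeq table of build GRCm38.p6 matched both genes, and its hairpins were identical in position and sequence to the GENCODE precursors of mm10. Capitals mark the longest stretch that the hairpins share, 23 bases.
Mir128-1: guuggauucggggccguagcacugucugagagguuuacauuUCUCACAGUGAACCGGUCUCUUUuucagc
Mir128-2: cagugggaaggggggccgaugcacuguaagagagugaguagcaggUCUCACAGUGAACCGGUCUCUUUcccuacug
The mature arms follow, with the seed in capitals. The 3p arm is the same in both genes, and each gene has a 5p arm of its own.
miR-128-3p: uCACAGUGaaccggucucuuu
miR-128-1-5p: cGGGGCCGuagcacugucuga
miR-128-2-5p: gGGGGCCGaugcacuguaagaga

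The 3p arm of 21 bases lies wholly inside the shared stretch. The stretch holds 2 more bases before the 3p arm and 0 after it. In Mir128-1 the next base is U and in Mir128-2 it is C, so a 3p read that runs past its annotated 3′ end differs between the genes. A 3p read within the shared stretch matches both loci, and reads that aligned to several places were counted on no gene. The 5p arms differ at 5 of the 21 positions compared, C1G, U9A, A10U, C18A and U19A, with the base of miR-128-1-5p first and positions counted from its 5′ end. They share no stretch longer than 7 bases, and the seed is 1 stretch of that length. No other annotated precursor, on either strand, shared more than 11 bases with the Mir128-1 hairpin or 14 bases with the Mir128-2 hairpin. Of the windows of 18 bases, 6 of 53 in Mir128-1 and 6 of 59 in Mir128-2 recurred, in each case in the hairpin of the other copy. The counts below sum both arms of a gene and leave out 3p reads that matched both loci. They therefore describe the reads placed on each locus and not the amount of miR-128-3p in the muscle. A 3p read with an extra U at its 3′ end fits Mir128-1 alone, and whether that U was copied from the gene was not tested.

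**Figure D1:**
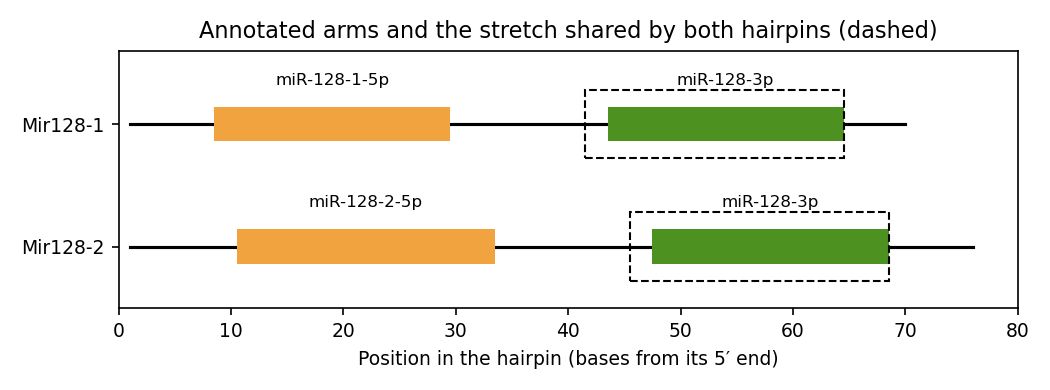
Annotated arms on the hairpins of Mir128-1 (top, 70 bases) and Mir128-2 (bottom, 76 bases), by position in bases from the 5′ end. Orange boxes are the 5p arms, green boxes the 3p arm, and the dashed frame is the shared stretch of 23 bases, at bases 42 to 64 in Mir128-1 and 46 to 68 in Mir128-2.

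Each gene lay in an intron of its host on the same strand and overlapped 0 exons of the host's annotated transcripts. Mir128-1 lies 99060 bases downstream of the start of R3hdm1, a gene of 134436 bases, in an intron of 14107 bases between exons 19 and 20 of the R3hdm1 transcript with 27 exons. The exon before it ends 5263 bases away. Mir128-2 lies 117227 bases downstream of the start of Arpp21, a gene of 170848 bases, in an intron of 51873 bases between exons 17 and 18 of Arpp21 transcripts with 19 exons. Here the exon before it ends 471 bases away, and a transcript with 15 exons has a shorter intron of 2415 bases at this place. Of the annotated transcripts of the hosts, 2 of 16 for R3hdm1 and 9 of 31 for Arpp21 have exons on either side of the miRNA gene. Neither host holds another annotated miRNA gene, and the nearest on the same chromosome are 3296209 bases from Mir128-1 and 370905 bases from Mir128-2. The hairpins had a GC content of 50.0% for Mir128-1 and 56.6% for Mir128-2.

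Replicate 2 held 3949733 sense reads on miRNA genes and replicate 1 held 3510897, and the unit of level, CPM, is the count per 1e6 such reads. Reads that aligned to several places made up 46.4% and 42.6% of the reads in the files of replicates 2 and 1. The labelled tissue was checked against striated muscle miRNAs, of which Mir206 stood at 95264 CPM in replicate 2 and 115948 CPM in replicate 1, and 11 of the 12 listed genes had reads. Across 386 genes, counts of the libraries differed beyond sampling noise (chi-square of 90.8 per degree of freedom).

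Both copies were detected, and Mir128-1 had more reads than Mir128-2 in each animal. Mir128-1 had 5006 reads in replicate 2 and 3629 in replicate 1, or 1267 CPM (exact Clopper-Pearson 95% interval 1233 to 1303) and 1034 CPM (1000 to 1068). Mir128-2 had 1387 reads in replicate 2 and 1245 in replicate 1, or 351.2 CPM (332.9 to 370.1) and 354.6 CPM (335.2 to 374.9). Every level of Mir128-1 lay above every level of Mir128-2, and the counting intervals of the genes did not overlap. The mean level was 1151 ± 165 CPM for Mir128-1 and 352.9 ± 2.44 CPM for Mir128-2 (SD, n = 2 animals). Neither gene had an antisense read, and without strand the counts of both were the same as with it. Intervals here and below cover counting error only, since the counts are of reads and not of unique molecules.

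**Figure D2:**
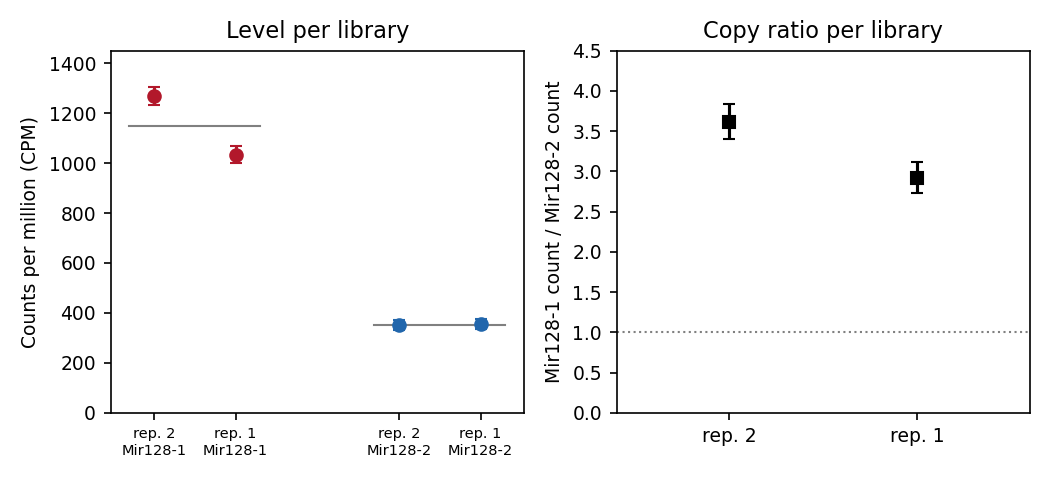
Left, level of Mir128-1 (red) and Mir128-2 (blue) in CPM in replicate 2 and replicate 1, with exact 95% counting intervals and a grey line at the mean of the animals. Right, count of Mir128-1 over count of Mir128-2 in each library with its exact 95% interval and a dotted line at equal counts. The copy ratio was 3.61 in replicate 2 and 2.91 in replicate 1.

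The copy ratio, the count of Mir128-1 over that of Mir128-2, was 3.61 in replicate 2 (exact 95% interval 3.40 to 3.83) and 2.91 in replicate 1 (2.73 to 3.11). The mean was 3.26 ± 0.491 (SD, n = 2), and per base of annotated precursor it was 3.54. Mir128-1 thus held 78.3% of the 6393 reads on the pair in replicate 2 and 74.5% of the 4874 reads in replicate 1. Mir128-1 was the higher copy in 2 of 2 animals. With 2 pairs a two-sided exact permutation test cannot give a p below 0.5, so no p is given for the direction. The pair together reached 1619 CPM in replicate 2 and 1388 CPM in replicate 1. These summed reads equal 0.135% and 0.140% of the reads that aligned to several places in replicates 2 and 1. How many of those came from miR-128-3p is not known.

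Between the 2 libraries, the counts of Mir128-1 differed beyond counting error, and those of Mir128-2 did not at the main scaling. Whether the copies vary differently among animals cannot be told from 1 library of each. Mir128-1 was 1.23-fold higher in replicate 2 than in replicate 1 (95% interval 1.17 to 1.28), a log2 ratio of 0.29 with an exact binomial adjusted p of 4.90e-20. Mir128-2 differed by a factor of 0.990 (0.917 to 1.07), a log2 ratio of -0.014 with an exact binomial adjusted p of 0.884. The copy ratio itself was 1.24 times larger in replicate 2 (95% interval 1.13 to 1.35, two-sided Fisher's exact p = 1.89e-06), a test that does not depend on library scaling. These tests compare the reads of 2 libraries, each of a single animal, and have no replicate check. Among 395 genes tested, 41.3% differed at an adjusted p under 0.05, 17.0% being higher and 24.3% lower in replicate 2, so a call for 1 of the 2 members does not set the pair apart. Neither member reached a 2-fold difference, which 7.09% of the tested genes did at that threshold. Of the 181 genes with at least 100 CPM, 124 passed the same test.

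Set against other genes of like level, the absolute log2 ratio of Mir128-1, 0.29, lay above the median of 0.13 over 46 genes. Mir128-2, with a log2 ratio of -0.014, lay below the median absolute value of 0.12 over 62 genes. The coefficient of variation of the animals was 14.4% for Mir128-1 and 0.691% for Mir128-2. edgeR's trend gave a biological coefficient of variation of 0.121 at the mean of Mir128-1 and 0.148 at that of Mir128-2, both as fractions of the mean. Of the 46 other detected genes within 2-fold of the mean of Mir128-1, 8 had a larger absolute log2 ratio and 0 had a higher log2 ratio. Over all detected genes, 52 had a higher log2 ratio than Mir128-1. Of the 62 detected genes within 2-fold of the mean of Mir128-2, 61 had a larger absolute log2 ratio. Scaling to all reads in the file lowers that count to 40 and raises the count for Mir128-1 to 32 of 46. DESeq2's size factors give 4 of 46 for Mir128-1.

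**Figure D3:**
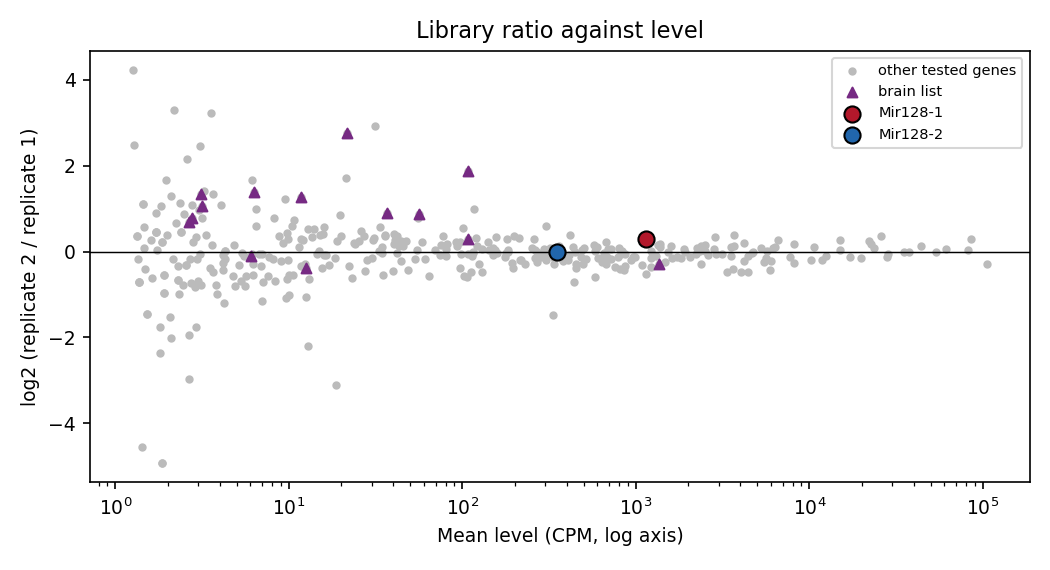
Log2 ratio of replicate 2 over replicate 1 against mean level in CPM (log axis) for the 395 genes tested. Mir128-1 (red) lies at 0.29 and Mir128-2 (blue) at -0.014, and purple triangles are the 14 tested genes of a list of miRNAs known from brain.

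Among the 332 genes with at least 2 CPM in both animals, Mir128-1 ranked 77 by mean level and Mir128-2 ranked 122. The genes just above Mir128-1 were Mir542 (1229 ± 92.9 CPM), Mir380 (1224 ± 211 CPM) and Mir324 (1216 ± 6.34 CPM), and those just below were Mir665 (1144 ± 285 CPM), Mir668 (1087 ± 165 CPM) and Mir1193 (986.5 ± 61.8 CPM). Only Mir1193 among these 6 had levels in both libraries that did not overlap those of Mir128-1. The genes just above Mir128-2 were Mir27a (382.6 ± 10.4 CPM), Mir503 (378.6 ± 41.7 CPM) and Mir125b-1 (358.6 ± 21.7 CPM). Those just below were Mir188 (350.8 ± 5.89 CPM), Mir181a-1 (348.9 ± 10.8 CPM) and Mir15b (346.0 ± 17.8 CPM). Here Mir27a alone did not overlap. The ranks therefore hold only to within several places. Per base of annotated precursor they were 73 for Mir128-1 and 123 for Mir128-2.

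By library ratio, over 2 libraries and 180 other genes of at least 100 CPM, the genes nearest to Mir128-1 were Mir132 (log2 ratio 0.30), Mir378a (0.29) and Mir708 (0.28). Those nearest to Mir128-2 were Mir144 (-0.015), Mir10b (-0.011) and Mir328 (-0.017). With 2 libraries this measure is a single ratio for each gene, so many genes lie close together on it.

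No gene other than Mir128-1 and Mir128-2 in the RefSeq table, of 1738 mature entries, held the seed of miR-128-3p, and the same was true of the seed of the 5p arms. The closest known relatives are the 3p arms of Mir27a and Mir27b, miRNAs known from adipocyte and muscle differentiation, whose seeds are offset by 1 base. Both are shown with their own seed in capitals.
miR-27a-3p: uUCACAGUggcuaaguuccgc
miR-27b-3p: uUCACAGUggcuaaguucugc
The 7 bases of the miR-128-3p seed stand at bases 3 to 9 of both, and the longest stretch each shares with miR-128-3p is 8 bases. Mir27b had 2473 CPM in replicate 2 and 2270 CPM in replicate 1, above Mir128-1 in each library. Mir27a had 375.2 CPM in replicate 2 and 389.9 CPM in replicate 1, close to Mir128-2. The Mir128 counts leave out 3p reads that matched both loci, while the 3p arms of Mir27a and Mir27b differ in sequence. These levels may therefore not measure the same arms. Mir27b was 1.09-fold higher in replicate 2 (95% interval 1.06 to 1.12, exact binomial adjusted p = 7.21e-08), and Mir27a had a factor of 0.962 (0.893 to 1.04, exact binomial adjusted p = 0.455).

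Among the miRNAs known from brain, the other tissue in which miR-128 is enriched, 21 listed genes were in the files and 14 were tested. Of the 14, 7 were higher and 1 was lower in replicate 2 at an adjusted p under 0.05, beside 17.0% higher and 24.3% lower over all genes tested. The median log2 ratio of the list was 0.88, against -0.029 over all genes tested. Higher were Mir383 (6.97-fold, 95% interval 4.31 to 11.9), Mir137 (3.70-fold, 3.11 to 4.42), Mir129-2 (2.67-fold, 1.36 to 5.63), Mir7b (2.44-fold, 1.51 to 4.08), Mir138-2 (1.87-fold, 1.44 to 2.43), Mir138-1 (1.83-fold, 1.49 to 2.26) and Mir132 (1.23-fold, 1.07 to 1.42). The lower gene was Mir134 (0.818-fold, 0.787 to 0.851), which belongs to the imprinted Dlk1-Dio3 region and held most reads of the list. Mir7-1 (0.764-fold, 0.496 to 1.17) and Mir212 (0.929-fold, 0.495 to 1.75) also had a fold below 1 but were not called. With or without a call, 11 of the 14 lay above 1. Of the 14, 10 were detected. Mir7-2, Mir153, Mir218-1 and Mir218-2 had under 10 reads in replicate 1 and passed the count minimum only with those of replicate 2. The median of 0.88 includes them. The list summed to 1734 CPM in replicate 2, against 1748 CPM in replicate 1. Both the brain list and the striated muscle list were chosen with earlier results of these data known. They also hold copies of the same miRNA, such as Mir138-1 and Mir138-2, so setting them against all genes describes them and is not a test. Of the narrower list of neuronal markers, 7 genes were in the files, with a sum of 171.9 CPM in replicate 2 and 46.1 CPM in replicate 1, of which Mir137 alone gave 169.6 CPM and 45.9 CPM. All 3 Mir124a genes and Mir9-2 were at 0 in both libraries, though reads of these copies can align to several places. The glial list stood at 375.0 CPM in replicate 2 and 249.5 CPM in replicate 1, almost all from Mir338 (366.9 CPM and 243.0 CPM). Its other genes, Mir219a-1 (0.889-fold) and Mir219a-2 (2.03-fold), had few reads and were not called.

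Among striated muscle miRNAs, the tissue sampled, 9 of 12 genes were tested, and 3 were higher and 1 was lower in replicate 2, a share called near the 41.3% of all genes tested. The median log2 ratio of the list was 0.31, against -0.029 over all genes tested. The higher genes were Mir208b (1.46-fold, 95% interval 1.26 to 1.69), Mir1a-2 (1.29-fold, 1.09 to 1.53) and Mir486 (1.24-fold, 1.12 to 1.37), of which Mir208b lies in the slow myosin gene Myh7. Mir206, known from skeletal muscle, was lower (0.822-fold, 0.818 to 0.825). Mir499, in the slow myosin gene Myh7b, had a factor of 1.02 (0.946 to 1.11, exact binomial adjusted p = 0.705). Summed over the list, replicate 2 had 96100 CPM and replicate 1 had 116659 CPM, nearly all from Mir206. Reads of the Mir1a and Mir133a copies can align to several places and were then not counted. The sums and the part of Mir206 in them thus describe only reads placed at a single site.

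Regardless of any call, 11 of the 14 tested brain genes had a log2 ratio above 0, as Mir128-1 did. So did 8 of the 9 tested striated muscle genes, beside 182 of 395 genes tested. Of the tested genes, 10 on the brain list and 8 on the striated muscle list were detected. Mir133a-1 and Mir208a had under 10 reads in replicate 1, so they too passed the count minimum only with replicate 2. These counts describe the lists and are not a test. Summed markers of other cells in the muscle also differed between the libraries. The smooth muscle list held 29892 CPM in replicate 2, against 23481 CPM in replicate 1, and the endothelial list, a single gene, held 46314 CPM and 42036 CPM. The erythroid list stood at 1865 CPM in replicate 2 and 2066 CPM in replicate 1, and the leukocyte list at 568.4 CPM and 614.9 CPM. In each of these lists 1 gene was called at an adjusted p under 0.05, namely Mir143, Mir126a, Mir451a and Mir142. Their other genes, Mir145a (1.04-fold), Mir144 (0.990-fold), Mir150 (0.964-fold) and Mir155 (1.03-fold), were not called. The part of any of these cell types in the difference of Mir128-1 was not tested. In tissue as a whole, more cells of a type and more RNA per cell cannot be told apart.

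Other pairs of copies place the ratio of Mir128-1 to Mir128-2 in context. Of 53 groups of miRNA genes whose names differ only in a copy number, 16 had exactly 2 genes, both detected. Mir128 ranked 2 of these 16 by summed level, after the Mirlet7f pair. Reads that fit both copies of a pair were counted on neither. The rank therefore orders the reads placed on single loci and not the amounts of the mature miRNAs. It was the only group of the 16 with both copies in introns and in 2 different hosts, with no overlap with an annotated exon. In 14 of the 16 groups, Mir128 included, each gene had exactly 1 arm that no other gene in the RefSeq table makes. The mean copy ratio of the 16 groups ran from 1.29 to 98.7 with a median of 4.03, and 10 groups had a larger ratio than Mir128. The ratio of the Mir128 copies was 0.31 higher on the log2 scale in replicate 2. Across the 16 groups the absolute change had a median of 0.18, and 4 groups changed by more than Mir128. These were Mir181a, Mir92, Mirlet7a and Mir30c, whose lower copies all had fewer reads than Mir128-2. The fewest were on Mir92-2, with 59 in replicate 2 and 52 in replicate 1. No interval is given for these changes, so counting error may make up part of them. In all 16 groups the higher copy on average was the higher copy in both animals.

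**Figure D4:**
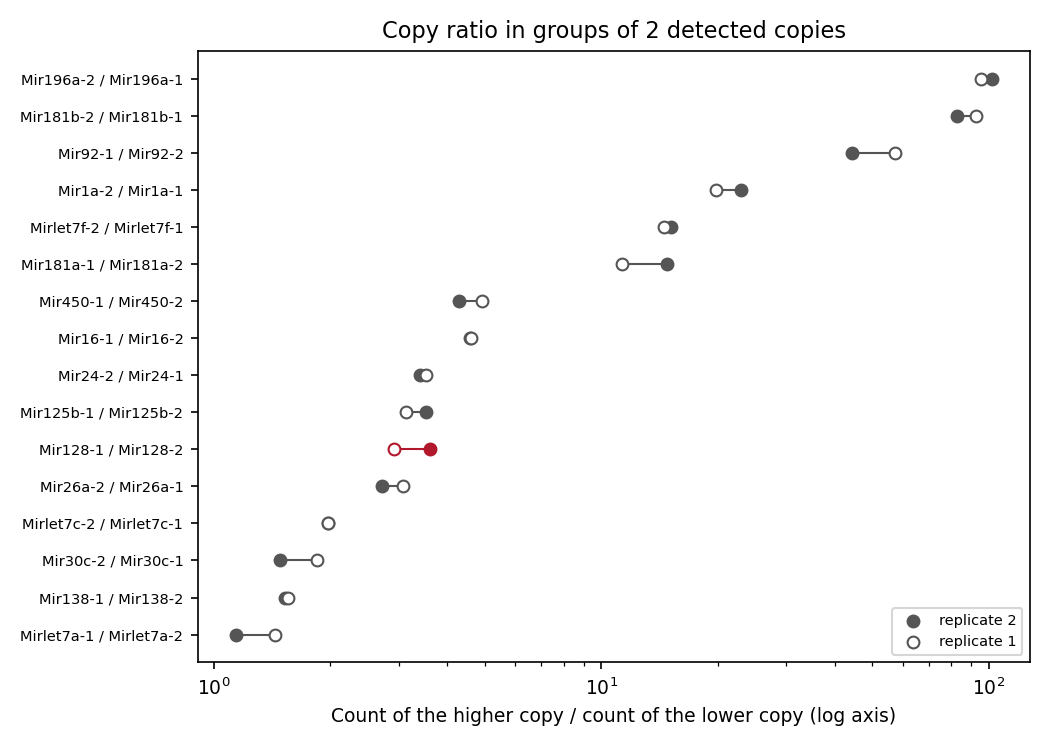
Count of the higher copy over count of the lower copy (log axis) in the 16 groups with 2 detected copies, filled circles for replicate 2 and open circles for replicate 1. The Mir128 pair (red), at 3.61 in replicate 2 and 2.91 in replicate 1, lies in the lower part of the plotted range, which runs from 1.14 to 101.8.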

How the data were processed

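The authors deposited raw read counts per miRNA gene, unstranded, sense and antisense, with 4 summary rows. Build mm10 and annotation GENCODE M21 are given in the descriptions deposited beside the counts, and the aligner is not given in the sources used here, nor is any trimming or filter. Sense and antisense were assigned from the column layout and totals. The 2202 identifiers were matched to GENCODE M21 for symbols, hosts and introns. Sense counts were scaled to 1e6 reads on miRNA genes, without summary rows (61.2% of reads in replicate 2 and 56.9% in replicate 1). A gene was detected at 2 CPM in both libraries. Library ratios, replicate 2 over replicate 1, were tested by the exact binomial test given the library totals (two-sided) on genes with at least 10 counts over both libraries, with Benjamini-Hochberg adjustment over all of them. Log2 ratios had 0.5 added to each count, and folds had none. The binomial step was tested on simulated counts that held counting noise only. The libraries differed beyond such noise, so the error rate of the test on these data is not known from that simulation. Alternatives were edgeR 4.0.16 TMM factors, DESeq2 1.42.0 size factors, the total of all reads, the total without the 5 most abundant genes, unstranded counts, other count minimums and leaving out each library. A count of 0 allows 3 counts, or 0.760 CPM for replicate 2 against 0.854 CPM for replicate 1, among reads placed at a single site. Python 3.11.15, scipy 1.17.1 and R 4.3.3 were used. Members and lists were chosen with earlier results of these data known. Named genes were the members, the Mir27 genes, 3 neighbours on each side by level, the 3 nearest by library ratio, the brain and striated muscle lists and copy pairs in introns of 2 hosts, with other names chosen after their values were seen.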

Additional observations from a re-analysis of the deposited data

How the results depend on the processing

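None of the 7 alternatives run for the library ratio of Mir128-1 changed its call or direction (log2 ratio 0.14 to 0.33, exact binomial adjusted p 3.35e-25 to 1.54e-05). The change of the copy ratio had unstranded counts as its only alternative, and these are the same as the sense counts for both genes, so its stability was not tested. The log2 ratio of Mir128-2 was -0.014. It changed sign with DESeq2's size factors (0.023) and with unstranded counts (0.019), and reached -0.16 with an exact binomial adjusted p of 0.00930 when scaled to all reads in the file. That scaling shifted the median of all genes by -0.15. The level of Mir128-1 moved to 468.5 when scaled to all reads, 1882 without the 5 most abundant genes and 1378 with unstranded counts, all per 1e6 reads. The level of Mir128-2 moved to 144.5, 577.2 and 422.3 under the same settings. Leaving out each library gave 1034 to 1267 CPM for Mir128-1, 351.2 to 354.6 CPM for Mir128-2 and a copy ratio of 2.91 to 3.61. At least 2-fold differences numbered 28 of 395 genes, and 15 with at least 10 counts in each library, which tests fewer genes. Ranks per base of precursor and counts of neighbouring genes under other scalings were added after seeing the data. No paired analysis was possible because the libraries form 1 group. At the main scaling, counting error alone left the library ratio of Mir128-2 between 0.917 and 1.07, and scaling to all reads moves it below that.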

Other observations

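The 2 genes of the Mir138 pair, a miRNA known from neurons, were both higher in replicate 2. Mir138-1 had 73.2 CPM in replicate 2 and 39.9 CPM in replicate 1, and Mir138-2 had 47.9 CPM in replicate 2 and 25.6 CPM in replicate 1. Their copy ratio was 1.53 in replicate 2 and 1.56 in replicate 1. The Mir16 pair had a ratio of 4.57 in replicate 2 and 4.60 in replicate 1. The ratio of the Mir125b pair was 3.53 in replicate 2 and 3.14 in replicate 1. The Mir16 and Mir125b pairs were named after their values were seen, and the differences between pairs were not tested.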
